A study of Homo sapiens with 6 samples.

Results

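The genes described here are the solute carriers that move amino acids, and compounds built like them, across cell membranes: the SLC3, SLC6, SLC7, SLC36, SLC38 and SLC43 families. Members were taken by a rule on the gene symbol, and 44 of the 16832 listed genes matched. RNA sequencing was done on U251, an established human glioma cell line labelled as wild type. In 3 libraries the cells had been incubated with SLCDS for 18 days, a small-molecule mixture of unnamed components in the labels, and 3 libraries came from controls given PBS. No culture time is given for the controls, and nothing states whether the libraries of a group came from separate cultures, so p-values measure the spread between these libraries only. The values are FPKM, fragments scaled to transcript length and library size, so that levels of different genes can be compared per unit of length.

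Amino acid carriers work in a few chemical modes. SLC38 proteins take up glutamine and other small neutral amino acids together with sodium, and some of them can run in reverse. SLC7 light chains exchange one amino acid for another and reach the plasma membrane bound to an SLC3 heavy chain, while the cationic SLC7 carriers work alone. SLC6 proteins use sodium and chloride to take up transmitters such as GABA, glycine and the monoamines, and also taurine and creatine. In brain, astrocytes release glutamine and neurons take it up to rebuild glutamate and GABA.

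Of the 44 members, 19 were expressed, here meaning 1 FPKM or more in at least 3 libraries, and these 19 exceeded 1 FPKM in all 6. No GABA carrier and no monoamine carrier was among them. Known substrates of the expressed set include glutamine and other neutral amino acids, cationic amino acids, cystine, glycine, taurine and creatine. SLC3A2, SLC38A2, SLC38A3 and SLC38A10 held 57.7% to 58.2% of the summed FPKM of all members in SLCDS and 60.9% to 65.5% in control. Levels ran from about 2 FPKM for SLC36A1 to about 100 FPKM for SLC3A2 and SLC38A2.

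**Figure D1:**
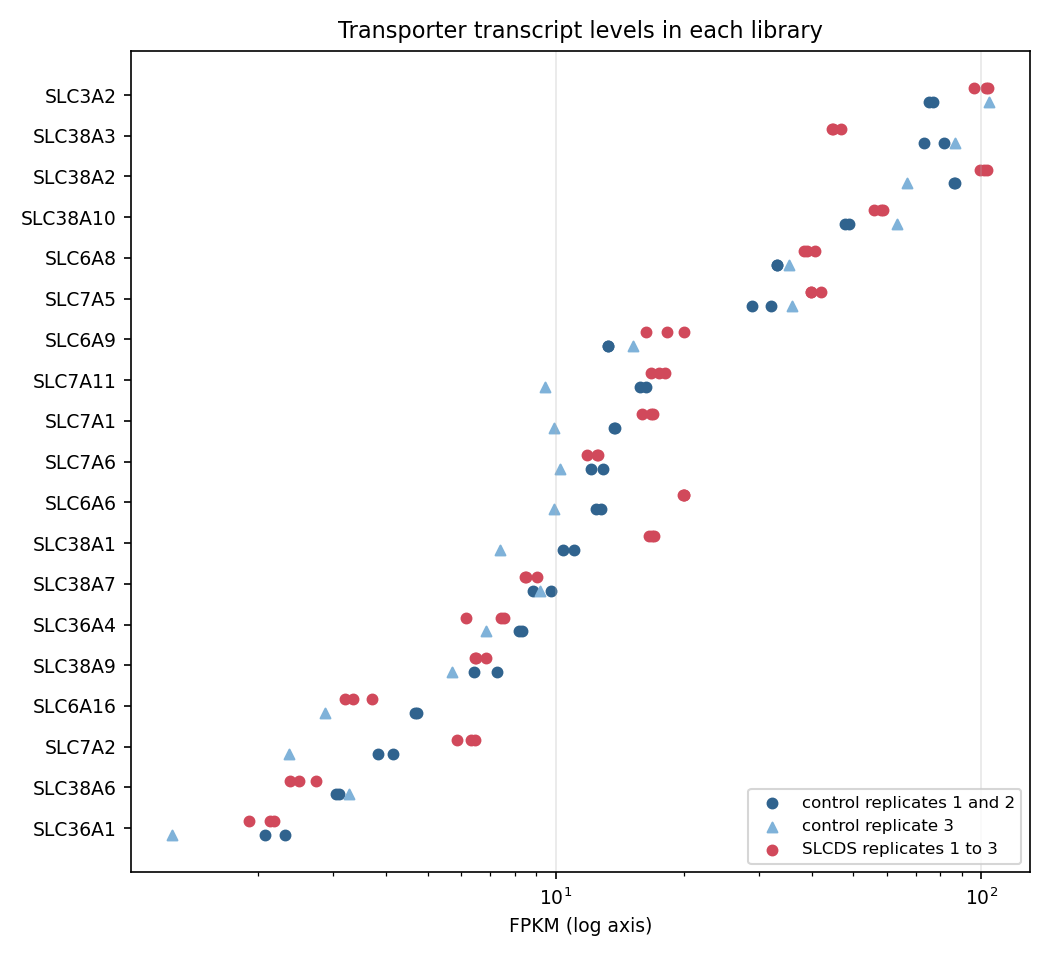
FPKM on a log axis of the 19 expressed transporters in each library, ordered by their control mean. Each point is 1 library, SLCDS above and control below the line of each gene, and control replicate 3 is drawn as a triangle. SLC38A3 lies lower in SLCDS than in every control, SLC38A1, SLC6A6 and SLC7A2 lie higher, and the triangle often stands away from the other controls.

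SLCDS was compared with control by limma on log2(FPKM + 1), with p-values adjusted over all 11506 genes that passed the same filter. A gene is said to have risen or fallen where the adjusted p was under 0.05. Of the 19 members 3 rose, against 4.28% of all tested genes, and 1 fell, against 1.82%. In either direction 4 of 19 members (21.1%) passed, beside 6.09% of all genes. The median log2 fold change was 0.21 over the members and 0.000359 over all genes. SLCDS and control values were fully separated for 11 of the 19 (57.9%), beside 29.1% of all genes.

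Control replicate 3 stood apart from the other libraries. Over all genes it correlated with controls 1 and 2 at a Pearson r of 0.9765 and 0.9767, where every other pair of libraries within a group had 0.9966 to 0.997. Among the 19 members it was the lowest control for 11 and the highest for 7. The 11 had longest protein-coding transcripts of 2927 to 9645 nucleotides (median 6308) and a median GC content of 43.1%, and the 7 had 1730 to 4537 nucleotides (median 3130) and 59.6%. The part of length and GC content in these differences was not tested for single members. Without this library 10 members were higher and 2 lower, beside 16% and 11.8% of all genes, and 12 of 19 passed where 27.7% of all genes did. Once each library's trend with length and GC content had been removed, 10 members were higher and 1 lower. In either direction this was 57.9% of the 19, beside 17.5% of all genes with a known length. Depth was even, and 1 FPKM on a transcript of 2000 nucleotides stood for about 32.6 to 34.4 fragments.

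The cells carried the glioma markers VIM, NES, SOX2, GFAP and S100B, while AQP4 and ALDH1L1 were under the filter. GFAP, the filament gene of astrocytes, had 127 to 141 FPKM in SLCDS and 312 to 354 in control. Of 7 neuronal markers, TUBB3, MAP2 and SNAP25 passed the filter, and the neuronal list summed to 51.3 to 52.5 FPKM in SLCDS and 63.4 to 63.9 in control. TUBB3 and MAP2 carried this sum, while SNAP25 went the other way with 5.95 to 6.44 and 4.46 to 5.53 FPKM, as did SYN1 and STMN2 under the filter. Of the oligodendrocyte markers, MBP, MOG and MOBP were under the filter. The endothelial list, mostly CDH5, with PECAM1, VWF and KDR under the filter, summed to 4.93 to 5.87 and 2.09 to 3.0 FPKM. The leukocyte list, with only CD68 above the filter, summed to 3.79 to 4.97 and 3.01 to 3.48 FPKM, and the summed fibroblast and epithelial lists overlapped between the groups, although within the fibroblast list, whose sum is nearly all COL1A2, single genes were apart. ACTA2 had 6.71 to 7.96 FPKM in SLCDS and 2.11 to 3.03 in control, PDGFRB 1.66 to 1.84 and 0.3002 to 0.4389, and COL1A1, under the filter, 0.462 to 0.663 and 0.881 to 1.16. The part of these markers in the transporter values was not tested, and in bulk RNA fewer cells of a type cannot be told apart from less RNA per cell.

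Of the 7 tested SLC38 genes, SLC38A1 rose, SLC38A3 fell and the other 5 did not pass. SLC38A3 encodes a glutamine transporter of astrocytes and liver that can run both inward and outward. Its FPKM was 46.8, 44.9 and 44.5 in SLCDS replicates 1 to 3 and 81.9, 73.4 and 86.5 in control replicates 1 to 3. Every SLCDS library lay below every control. SLC38A3 fell, by limma, with a log2 fold change of -0.81, an SE of 0.08 and an adjusted p of 0.00188, and the control mean was 1.78 times the SLCDS mean. The call held in 18 of 18 other settings, at an adjusted p of at most 0.0216.

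SLC38A1, which encodes a sodium-coupled carrier by which neurons take up glutamine, went the other way. It stood at 16.8, 17.0 and 16.6 FPKM in SLCDS and at 10.4, 11.0 and 7.39 FPKM in control. The SLCDS libraries were close together and above all controls, of which replicate 3 was lowest. SLC38A1 rose, with a log2 fold change of 0.76 (SE 0.14; limma, adjusted p = 0.0200). Without control replicate 3 the log2 fold change was 0.60 and the adjusted p was 2.02e-05. The call was lost when any SLCDS library was left out (limma, adjusted p = 0.0943 to 0.103) and after rescaling each library to the same FPKM sum (0.0664), and it held in 14 of 18 other settings.

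SLC38A3 was more abundant than SLC38A1 in every library, but by a different margin. The ratio of SLC38A3 to SLC38A1, which no scaling of whole libraries can alter, was 2.79, 2.64 and 2.69 in SLCDS and 7.85, 6.67 and 11.7 in control. Groups stayed apart, and an exact 2-sided permutation test gave p = 0.1, the smallest that 3 libraries against 3 can give. This pair was chosen after its values were seen. Transcripts of SLC38A3 and SLC38A1 have 2978 and 8066 nucleotides and a GC content of 58.6% and 41.3%. A trend with length or GC content is not removed by such a ratio, and its part here was not tested. The FPKM of the whole SLC38 family summed to 237 to 240 in SLCDS and 239 to 246 in control, ranges that overlap (exact 2-sided permutation p = 0.3), so the family total differed by less than the spread between libraries.

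SLC38A2, the carrier known for its induction when amino acids run short, was the most abundant family member in SLCDS. It stood at 103, 101 and 99.5 FPKM in SLCDS and at 86.7, 86.1 and 67.0 in control. The ranges did not overlap, yet it missed the threshold (log2 fold change 0.35, SE 0.11; limma, adjusted p = 0.144). Without control replicate 3 the log2 fold change was 0.23 and the adjusted p was 0.00155. In RefSeq gene order SLC38A1, SLC38A2 and SLC38A4 are consecutive protein-coding genes on chromosome 12. SLC38A4 was under the filter, with at most 0.0903 FPKM.

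SLC38A10, a less studied member of the family, had 55.9, 58.8 and 58.0 FPKM in SLCDS and 47.9, 48.8 and 63.4 in control. Only control replicate 3 lay above the SLCDS libraries, and without it the gene was higher in SLCDS (log2 fold change 0.25; limma, adjusted p = 0.00166; with it, 0.658). SLC38A9, the lysosomal arginine sensor that signals to mTORC1, averaged 6.60 ± 0.218 FPKM (SD, n = 3) in SLCDS and 6.46 ± 0.788 in control. SLC38A7, a lysosomal carrier of glutamine, averaged 8.66 ± 0.326 and 9.24 ± 0.453 FPKM. SLC38A6 averaged 2.53 ± 0.183 and 3.13 ± 0.113 FPKM without overlap of the ranges. None of these 3 genes passed, and by limma the lowest of their adjusted p values was 0.164, for SLC38A6.

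**Figure D2:**
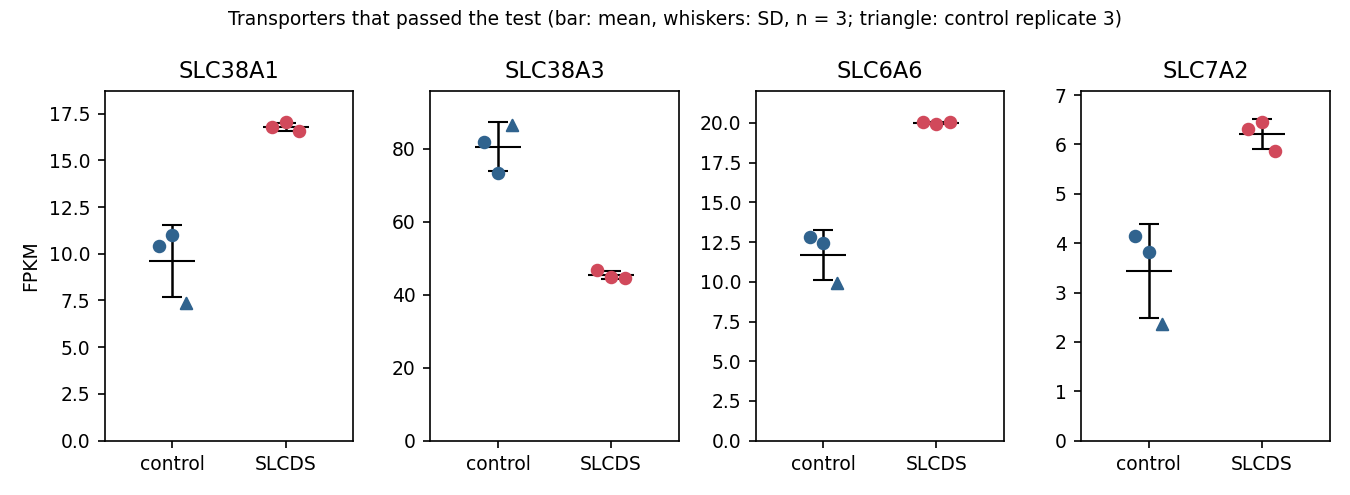
FPKM of the 4 members that passed the test, with 1 panel per gene and axes from 0. Points are libraries, triangles mark control replicate 3, horizontal bars are means and whiskers are SD with n = 3 per group. SLC38A3 lies at 44.5 to 46.8 in SLCDS and 73.4 to 86.5 in control, while SLC38A1, SLC6A6 and SLC7A2 lie above all controls.

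Promoter windows from RefSeq (GRCh38.p14), 250 bases before to 50 after each annotated start, were read for 34 of the 44 members, 15 of them expressed. SLC38A3, SLC6A6 and SLC7A2 are not among the 34. The letters TGATGNAA, a core of the amino acid response element bound by ATF4 with a C/EBP partner, were searched on both strands. They occurred in 3 of the 50 windows of members, those of SLC38A1, SLC3A2 and SLC7A1, and in 3.62% of all 35116 windows. Stretches of 30 bases around each match are shown in gene orientation, 5′ to 3′, to let them be compared, with the match in capitals. In SLC38A1 it begins 4 bases before the start, and in SLC7A1 and SLC3A2 at base 8 and base 38 of the transcript, in SLC3A2 on the opposite strand.
SLC38A1, chr12:46266502-46266531, minus strand: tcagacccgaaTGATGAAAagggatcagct
SLC7A1, chr13:29595663-29595692, minus strand: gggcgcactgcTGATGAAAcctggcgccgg
SLC3A2, chr11:62881719-62881748, plus strand: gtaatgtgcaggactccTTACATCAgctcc

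The bases before the SLC38A1 start are given because, of the 4 members that passed the test, it is the one whose window was read. Capitals mark the part of the match that precedes the start, and the 250 bases have a GC content of 42.4%, beside a median of 58% over all windows.
SLC38A1, chr12:46266517-46266766, minus strand: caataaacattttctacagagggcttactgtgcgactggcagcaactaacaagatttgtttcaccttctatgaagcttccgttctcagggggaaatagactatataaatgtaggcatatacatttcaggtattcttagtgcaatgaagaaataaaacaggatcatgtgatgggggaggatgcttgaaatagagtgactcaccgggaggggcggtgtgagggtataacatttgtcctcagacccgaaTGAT
The core of the antioxidant response element, TGACNNNGC, was searched the same way and occurred in 5 of the 50 windows of members and in 13.3% of all windows. Expressed members with it were SLC3A2, SLC7A1, SLC7A5 and SLC7A6. The heavy chain and its most abundant light chain are shown, with the match in capitals.
SLC3A2, chr11:62881651-62881680, plus strand: acgagggtgggTGACTCAGCgtcctccttc
SLC7A5, chr16:87869491-87869520, minus strand: ggcggggttccTGACGCAGCtgcgggcggc
These matches describe letters in the reference and show no binding.

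Among the SLC6 carriers only SLC6A6, which encodes the taurine transporter, passed the test. It stood at 20.04, 19.91 and 20.04 FPKM in SLCDS and at 12.8, 12.4 and 9.91 in control. The SLCDS libraries were almost level and all above the controls. SLC6A6 rose by 1.71 times on the mean (limma log2 fold change 0.73, SE 0.10, adjusted p = 0.00657) and passed in 18 of 18 other settings with an adjusted p of at most 0.0499. Without control replicate 3 the log2 fold change was 0.63.

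The creatine transporter gene SLC6A8 was the most abundant SLC6 member. It had 38.3, 38.9 and 40.6 FPKM in SLCDS and 33.1, 33.1 and 35.2 in control, without overlap but short of the threshold (log2 fold change 0.21; limma, adjusted p = 0.137). SLC6A9 encodes the glial-type glycine transporter and had 20.03, 16.3 and 18.3 FPKM in SLCDS and 13.3, 13.2 and 15.1 in control. Its ranges did not overlap either, and it also missed the threshold (log2 fold change 0.37; limma, adjusted p = 0.0836). When control replicate 3 was left out, limma called SLC6A8 and SLC6A9 higher, at adjusted p values of 0.00269 and 0.00226. SLC6A16, an orphan member of the family, had 3.34, 3.20 and 3.70 FPKM in SLCDS and 4.72, 4.66 and 2.87 in control. Its SLCDS libraries lay between control replicate 3 and the other controls, and without that library it was lower in SLCDS (log2 fold change -0.37; limma, adjusted p = 0.00455; with it, 0.617).

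Of the cationic carriers, which bring in arginine, lysine and ornithine, SLC7A2 rose. It had 6.32, 6.45 and 5.86 FPKM in SLCDS and 4.14, 3.83 and 2.36 in control. All SLCDS libraries lay above all controls, with control replicate 3 lowest. The log2 fold change was 0.72 (SE 0.16; limma, adjusted p = 0.0443), and without control replicate 3 it was 0.53 (adjusted p = 0.000357). The call was the least steady of the 4: it held in 9 of 17 other settings and was lost when any SLCDS library or control replicate 2 was left out (limma, adjusted p = 0.0787 to 0.185).

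SLC7A1, the cationic carrier of most dividing cells, was the more abundant. It had 16.7, 16.0 and 16.9 FPKM in SLCDS and 13.7, 13.8 and 9.88 in control. Its ranges did not overlap, and the gene missed the threshold with all libraries (log2 fold change 0.40; limma, adjusted p = 0.143) and passed without control replicate 3 (log2 fold change 0.25; adjusted p = 0.00443).

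**Figure D3:**
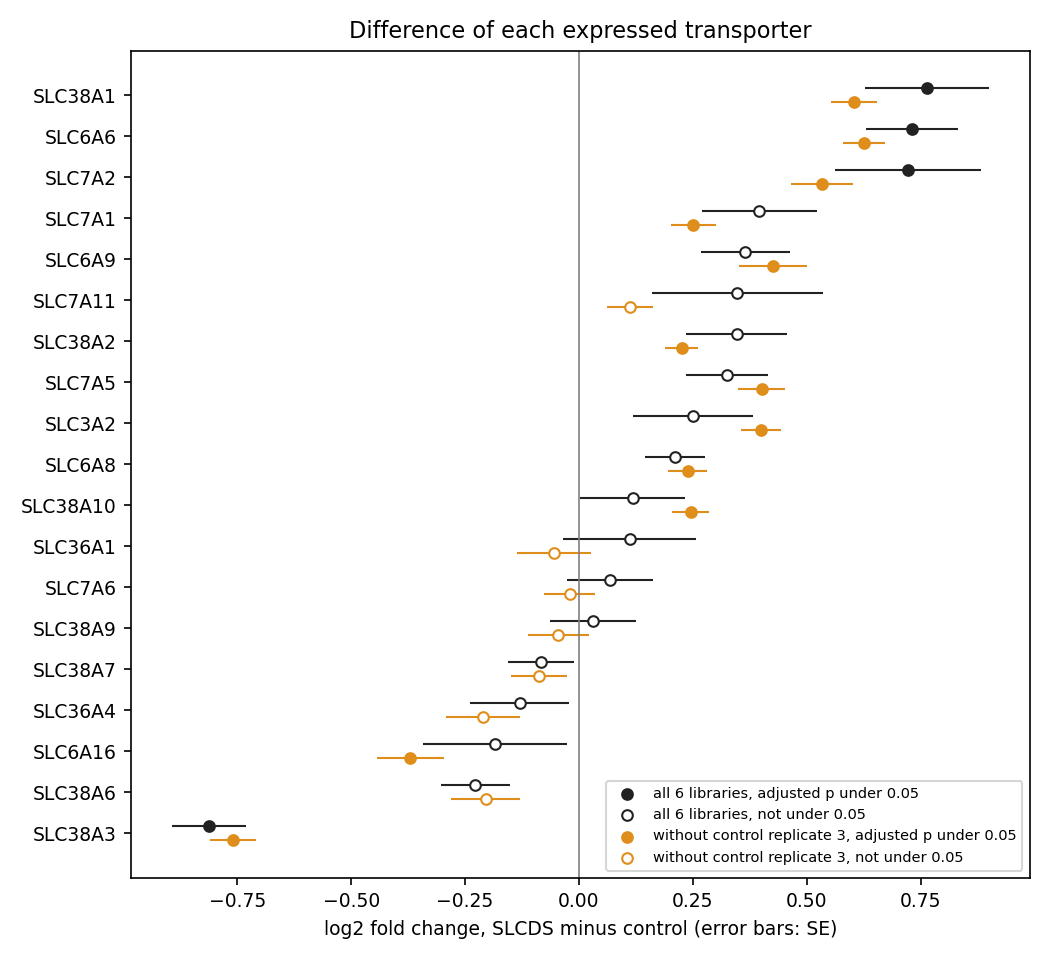
Log2 fold change of SLCDS against control on the log2(FPKM + 1) scale for the 19 expressed transporters, with SE as error bars, from all 6 libraries (black) and without control replicate 3 (orange). Filled points have an adjusted p under 0.05: 4 of 19 with all libraries and 12 of 19 without control replicate 3.

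The CD98 heavy chain gene SLC3A2 escorts SLC7 light chains to the plasma membrane. It had 102, 96.0 and 103 FPKM in SLCDS and 75.1, 76.8 and 104 in control. Control replicate 3 lay above all SLCDS libraries and the other controls below them, and the gene did not pass (log2 fold change 0.25, SE 0.13; limma, adjusted p = 0.376). Without that library it was higher in SLCDS (log2 fold change 0.40; adjusted p = 0.000113), as it was after removal of the length and GC trend (adjusted p = 0.00665).

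Its most abundant light chain partner was SLC7A5, the carrier of large neutral amino acids such as leucine. SLC7A5 had 39.7, 39.7 and 42.0 FPKM in SLCDS and 32.0, 28.9 and 35.8 in control. Without overlap of the ranges it missed the threshold (log2 fold change 0.32, SE 0.09; limma, adjusted p = 0.0957). It passed in 5 of 18 other settings, among them the one without control replicate 3 (log2 fold change 0.40; adjusted p = 0.000401). SLC7A11, the light chain of the cystine and glutamate exchanger, averaged 17.4 ± 0.620 FPKM in SLCDS and 13.8 ± 3.81 in control, with 15.8, 16.3 and 9.45 FPKM in the controls. It did not pass (limma, adjusted p = 0.390), and without control replicate 3 the log2 fold change was 0.11 (adjusted p = 0.129). It was higher only with the length and GC trend removed (log2 fold change 0.25; adjusted p = 0.0214). SLC7A6, an exchanger of cationic for neutral amino acids, averaged 12.3 ± 0.413 and 11.7 ± 1.37 FPKM (limma, adjusted p = 0.772).

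The SLC3A2 level over the summed level of its light chains was 1.48, 1.36 and 1.44 in SLCDS and 1.25, 1.31 and 1.86 in control. The control values enclosed those of SLCDS. The ratio of heavy to light chain transcripts thus differed by less than the spread between libraries (exact 2-sided permutation p = 1.0).

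The SLC36 family includes proton-coupled carriers of small amino acids. SLC36A4 had 7.43, 7.56 and 6.13 FPKM in SLCDS and 8.21, 8.34 and 6.85 in control, so the ranges overlapped (limma, adjusted p = 0.603). SLC36A1 averaged 2.07 ± 0.147 and 1.88 ± 0.552 FPKM (adjusted p = 0.755). The SLC43 carriers SLC43A1 and SLC43A2, which carry large neutral amino acids without sodium, fell just under the filter. SLC43A1 had 0.910, 1.103 and 1.304 FPKM in SLCDS and 0.651, 0.996 and 0.972 in control, and SLC43A2 had 0.885, 0.965 and 0.899 FPKM in SLCDS and 1.25, 0.922 and 1.14 in control. The least abundant member inside it was SLC36A1, whose lowest library had 1.25 FPKM.

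In all 25 members were under the filter and were not tested. Highest values were under 0.1 FPKM for 14 of them, 0.1 to under 0.5 FPKM for 6 and 0.5 FPKM or more for 5. The last were SLC3A1, the heavy chain of the kidney cystine carrier, its light chain SLC7A9, SLC43A1, SLC43A2 and SLC43A3. SLC43A3 reached 0.555 FPKM in SLCDS replicate 3 and at most 0.173 in any other library. The 6 in the middle class were SLC6A13, SLC6A14, SLC6A15, SLC7A3, SLC7A7 and SLC38A5. Among the 14 lowest were SLC6A4, SLC6A7, SLC6A11, SLC6A12, SLC6A20, SLC7A8, SLC7A10, SLC7A14, SLC36A2, SLC36A3, SLC38A4, SLC38A8 and SLC38A11.

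Low FPKM values step in multiples of what 1 fragment is worth, so the fragments behind several of these genes could be estimated, as the smallest whole numbers that fit the steps. The true counts may be multiples of these. SLC6A11, the astrocytic GABA transporter gene, had 1, 1 and 0 fragments in SLCDS and none in the controls. SLC6A4, the serotonin transporter gene, had 9, 5 and 0 fragments in SLCDS and 3, 2 and 4 in control, and SLC7A10, an astrocytic carrier of small neutral amino acids, was above 0 in SLCDS replicate 3 alone. At these counts a difference between the groups was not detectable. SLC6A14, a broad carrier of neutral and cationic amino acids, had 4, 5 and 0 fragments in SLCDS and 26, 15 and 12 in control. Its ranges did not overlap, which was noticed after its values were seen and was not tested.

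The genes around these carriers were taken from lists chosen by function. Among other amino acid transporters of the plasma membrane 2 of 4 tested genes rose and none fell (median log2 fold change 0.28). This is 50.0% of the list, beside 6.09% of all tested genes in either direction. The glutamine exchanger gene SLC1A5 rose to 116 ± 6.22 FPKM from 75.0 ± 13.9 (limma log2 fold change 0.64, adjusted p = 0.0332). The neuronal glutamate transporter gene SLC1A1 rose from 6.32 ± 0.232 to 8.27 ± 0.285 FPKM (log2 fold change 0.34; adjusted p = 0.0353). The list had 2 genes higher and 1 lower without control replicate 3 (75.0%, beside 27.7% of all genes). SLC1A5 and SLC1A1 passed in 12 and 10 of 18 other settings. Lysosomal and vesicular carriers had 1 called gene among 7 (14.3%, beside 6.09% of all genes), higher in SLCDS, and none lower (median log2 fold change 0.0449). It was the vesicular glutamate transporter gene SLC17A7, chosen after its values were seen. SLC17A7 had 1.75, 1.91 and 2.29 FPKM in SLCDS and 0.562, 0.396 and 0.520 in control, and so entered the test only through SLCDS. Its values are a description, and so is the share of the list, which rests on this gene alone. The most abundant of this list, SLC18B1 (18.7 ± 0.490 and 19.8 ± 0.570 FPKM in SLCDS and control) and the lysosomal sialic acid carrier gene SLC17A5 (14.4 ± 1.26 and 13.9 ± 0.412 FPKM), did not pass.

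In the amino acid response, the kinase GCN2 and the factor ATF4 raise carriers and synthesis enzymes when amino acids are scarce. Of the 30 tested genes of this list 6 rose and none fell, where 4.28% of all tested genes rose and 1.82% fell. The list's median log2 fold change was 0.20. ATF4 itself stood at 42.0 ± 2.13 FPKM in SLCDS and 41.7 ± 8.85 in control (limma, adjusted p = 0.941). Its controls were 35.7, 37.5 and 51.8 FPKM, and without the last, replicate 3, it was higher in SLCDS (log2 fold change 0.19; adjusted p = 0.0185). TRIB3, a pseudokinase gene and ATF4 target, rose to 31.0 ± 2.26 FPKM from 15.8 ± 4.88 (limma log2 fold change 0.96, adjusted p = 0.0269). The mitochondrial folate enzyme gene ALDH1L2, counted among the 6, entered the test only through SLCDS, where it averaged 1.77 ± 0.0547 FPKM against 0.783 ± 0.205, so that its values are a description. STC2, which encodes the secreted stanniocalcin, had a log2 fold change of 0.54 (adjusted p = 0.0112), and the tryptophanyl-tRNA synthetase gene WARS1 one of 0.48 (adjusted p = 0.0498, held in 5 of 17 other settings). The list had 21 genes higher and 2 lower without control replicate 3 (76.7%, beside 27.7% of all genes).

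No gene of the mTORC1 amino acid sensing list passed by limma among 28 tested, beside 6.09% of all genes (median log2 fold change -0.0203). An unadjusted p under 0.05 was found for 4 of them, and for 2139 of all 11506 genes. Its most abundant genes, the Rag GTPase gene RRAGA (98.0 ± 5.73 and 98.1 ± 13.8 FPKM in SLCDS and control) and the Ragulator subunit gene LAMTOR5 (79.4 ± 6.42 and 79.6 ± 17.5 FPKM), had nearly equal group means. Control replicate 3 was the highest library for both, at 114 and 99.7 FPKM. With it left out their log2 fold changes were 0.12 and 0.18 (limma, adjusted p = 0.108 and 0.0546). Without control replicate 3 the list's median was 0.0138, and 3 of its genes were higher and 2 lower (17.9%, beside 27.7% of all genes). No mitochondrial amino acid carrier passed among 10, and 0 had an unadjusted p under 0.05 (median -0.0834). The serine carrier genes SFXN1 (22.7 ± 0.761 and 24.6 ± 0.269 FPKM) and SFXN3 (21.5 ± 0.671 and 20.1 ± 1.47 FPKM) led this list. It had 1 gene higher without control replicate 3 (10.0%, beside 27.7% of all genes).

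In the cystine and glutathione list 1 of 13 tested genes rose and none fell (7.69%, near the 6.09% of all genes that passed). It was the quinone reductase gene NQO1, with 129 ± 5.44 FPKM in SLCDS against 96.7 ± 9.12 in control. Its log2 fold change was 0.42 (limma, adjusted p = 0.0399, held in 10 of 18 other settings). The lipid peroxide reductase gene GPX4 stood at 196 ± 6.54 FPKM in SLCDS and 219 ± 63.5 in control. The list's median was -0.0139 with all libraries and 0.142 without control replicate 3, when 7 were higher and 1 lower (61.5%, beside 27.7% of all genes). In the list of transmitter, creatine and taurine metabolism 1 of 13 (7.69%, again near 6.09%) fell and none rose (median log2 fold change -0.205). It was GATM, the first enzyme of creatine synthesis, chosen after its values were seen, with 19.5 ± 1.34 FPKM in SLCDS against 24.95 ± 0.343 (limma log2 fold change -0.34, adjusted p = 0.0400). The most abundant, the brain creatine kinase gene CKB, stood at 198 ± 10.8 FPKM in SLCDS and 213 ± 55.0 in control. Without control replicate 3 the list had 1 gene higher and 5 lower (46.2%, beside 27.7% of all genes). Apart from SLC17A7 and ALDH1L2, all 9 called genes in these lists lost the call without any 1 of the SLCDS libraries. Their limma adjusted p values then ran from 0.0591 (STC2) to 0.217 (WARS1), and all but STC2 also lost the call without control replicate 1 or 2. SLC17A7 and ALDH1L2 entered the test only through SLCDS, so their calls are a description and are not compared with those of these 9 genes.

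**Figure D4:**
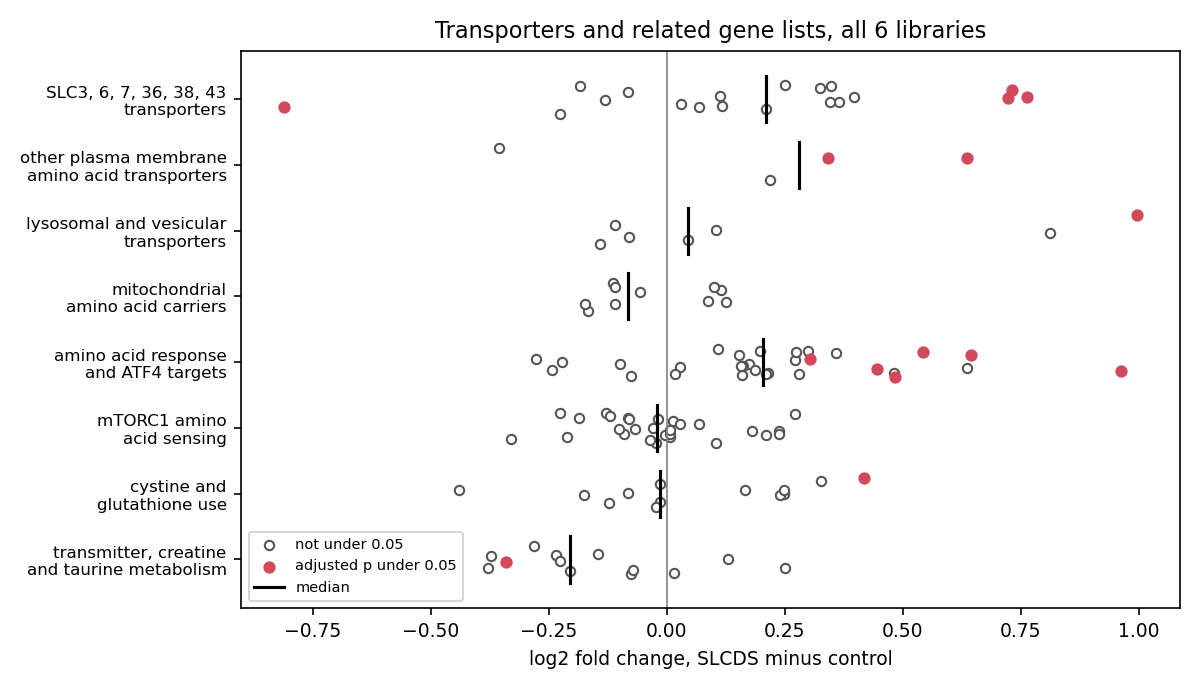
Log2 fold change of SLCDS against control from all 6 libraries for the 19 expressed transporters and for 7 lists of related genes. Each point is a tested gene, filled where its adjusted p is under 0.05, and the black line is the median of the list, 0.21 for the transporters and 0.20 for the amino acid response.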

How the data were processed

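The authors deposited 1 file of FPKM values per library, on a linear scale, for 16832 gene symbols. For aligner, counting tool and annotation, names were not given in the sources used here. GRCm38 and mm10, mouse builds, appear in the submitters' processing notes although line and symbols are human, so coordinates are printed only for RefSeq promoters. Groups and replicate numbers came from the titles.

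The 11506 genes with 1 FPKM or more in at least 3 libraries were compared on log2(FPKM + 1). The tool was limma 3.58.1 (R 4.3.3), its prior variance fitted as a trend on mean level, its 2-sided p-values adjusted by Benjamini-Hochberg over the 11506. This scale understates changes of low genes. The linear model was tested on simulated data. Members and lists were chosen with earlier results of these data known. By rule, 6 values were given for members that passed, with or without control replicate 3, for those whose groups did not overlap at a log2 fold change of at least 0.5 in size, and for the most abundant of each role. Up to 4 called genes per list were named, or the 2 most abundant where fewer than 2 were called. Some genes that these rules select are not reported here. Depth was estimated from the steps between low values, whole within a relative tolerance of 0.006 for 79.7% of 1760 low genes. The absolute depth (32.6 to 34.4 fragments per FPKM on 2000 nucleotides) rests on the 62 of 166 single-transcript genes whose estimates fell within 5% of each other. Alternatives were other pseudocounts (0.1 and 0.5), filters, scalings, priors of the variance, the replicate number as a block, leaving out each library and, added after seeing the data, removal of each library's trend with transcript length and GC content (GENCODE 29, natural splines of 4 degrees of freedom, 11275 genes). Tables, exact permutation tests and figures used Python 3.11.15 with scipy 1.17.1, numpy 2.4.6, matplotlib 3.10.9 and pandas 2.3.3.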

Additional observations from a re-analysis of the deposited data

How the results depend on the processing

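Genes passing numbered 701 (492 higher, 209 lower) with all libraries, and 4 members passed (3 higher, 1 lower). Leaving out 1 library gave 276 to 3191 genes (210 to 1838 higher, 66 to 1353 lower) and 2 to 12 members (1 to 10 higher, 1 to 2 lower); control replicate 3 gave the highest value of each. With a mean FPKM of at least 5, 324 genes passed (196 higher, 128 lower). With the length and GC trend removed, chosen after the data were seen, 1969 passed (1181 higher, 788 lower), with 11 members, 10 of them higher. Quantile normalization gave 326 lower genes and 5 higher members. With a replicate block 455 genes passed, 109 of them lower, and the same number of members as without it. Same-numbered libraries had correlations of their deviations from the group means of -0.326, 0.36 and 0.0652, and not every library correlated best with its own number. Deviations within a group sum to 0, and control replicate 3 stood apart from the other controls. These correlations therefore cannot show whether the numbers pair the libraries. Of the members' log2 fold changes, 3 that were near 0 turned sign. SLC7A6 ranged from -0.0206 to 0.134 over the libraries left out and was -0.00174 with the trend removed. SLC36A1 ranged from -0.0549 to 0.221, and SLC38A9 from -0.045 to 0.107, with -0.0055 under quantile normalization. The cause was not tested. Over members and settings, 300 values kept direction and call, 21 were newly past the threshold, 12 no longer past it and 5 of opposite sign. With 3 libraries a group, no member with a log2 fold change nearer to 0 than 0.72 was called from all 6. A mean FPKM of at least 5 gives no value for SLC7A2, SLC6A16, SLC36A1 and SLC38A6.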

Other observations

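Summed by role, transporter transcripts shifted modestly between the groups. All 44 members together had 529, 521 and 529 FPKM in SLCDS and 477, 469 and 490 in control. The groups did not overlap, and an exact 2-sided permutation test gave p = 0.1, the smallest that 3 against 3 can give, as it did for the next 4 sums. The SLC7 light chains summed to 69.5 to 71.9 FPKM in SLCDS and 56.5 to 60.4 in control, the cationic SLC7 carriers to 22.6 to 23.1 and 12.3 to 17.8, and the GABA, taurine and creatine carriers, nearly all of it SLC6A6 and SLC6A8, to 58.5 to 60.8 and 45.3 to 46.1. The glycine and other amino acid carriers of SLC6, mostly SLC6A9, summed to 19.6 to 23.6 and 18.3 to 18.4 FPKM. They are 5 of 16 sums, shares and ratios computed from the same libraries. With 3 libraries against 3, none of these 16 could reach a p under 0.05 by this test, with or without adjustment.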
